A study of Macaca mulatta with 24 samples.

Results

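Metallothioneins were followed in the jejunum of rhesus macaques from 4 to 12 days after total body irradiation (TBI). Of the 43603 probes on the array, 7 carried a symbol of the form MT1 to MT4 with at most 1 further letter, and each was kept apart. They stood for 5 of the 16094 symbols on the array: MT1E with 2 probes, MT2A with 2, and MT1X, MT3 and MT4 with 1 each. The genes were chosen by measured values, since several of their probes were among the largest rises over control, so every difference from control given here for a metallothionein is a description and carries no test. Comparisons between doses and between days were not themselves used for that choice. They share the irradiated group means with it, so they are not independent of it.

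Metallothioneins are small cysteine-rich proteins that bind zinc and copper and take up reactive oxygen species. Their genes lie in 1 cluster, and the metal-sensing factor MTF1 switches MT1 and MT2 genes on when free zinc rises. Glucocorticoids, IL-6 acting through STAT3 and oxidative stress raise them as well, and in the gut they are found in the mucosa, zinc-rich Paneth cells included. MT1 and MT2 genes are broadly expressed, whereas MT3 is best known from the brain and MT4 from stratified squamous epithelium.

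Each of the 24 arrays held RNA from full-thickness jejunum of 1 young adult male rhesus macaque, without pooling. Irradiated animals received a single whole-body dose of 6.7 or 7.4 Gy of gamma rays from a cobalt source, and tissue was taken on day 4 (4 animals per dose), day 7 (4 per dose) or day 12 (2 per dose), the last day as titles and day labels give it, although the protocol text of the labels names a later one. The 4 control animals were sham-treated without irradiation and labelled day 4, so the groups of days 7 and 12 had no control of their own day and all 6 irradiated groups were set against the same 4 animals. Because whole tissue was measured, more or fewer cells of a type and more or less RNA per cell cannot be told apart.

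Levels are log2 of the scanner's processed signal minus the 75th percentile of that signal on the same array, so 0 is the array's 75th percentile and 1 unit is a 2-fold difference. That percentile lay between 505 and 1069 intensity units, and 39.4 to 87.7% of all probes were well above background on an array. A probe was tested where every array of at least 1 group was well above background, which held for 28171 of the 43603 probes. All 7 metallothionein probes were well above background on all 24 arrays and none was saturated, with processed signals from 356 to 925 for MT3 and from 3252 to 258921 for the other 6. The number of arrays limits the precision.

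The probes name a family of near-identical genes, and the symbols do not separate them fully. In the RefSeq gene table of the assembly T2T-MMU8v2.0, 23 genes run from MT4 to MT1X on chromosome 20, of which 9 have a metallothionein symbol, 19 are protein coding and 2 are pseudogenes. MT4 opens the row, followed by MT3 and MT2A, with MT1E further in and MT1X at the far end. Both MT1E probes carry the same transcript identifier. The transcript identifier of MT2A probe A_01_P1833821 belongs in that table to LOC701928, another gene of the cluster. Probe sequences were not used here, so which family members each probe binds was not tested, and the 7 probes are not taken as independent measures. The table's assembly differs from the array's build rheMac2, and no positions are given.

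In every irradiated group, 6 of the 7 probes were higher than in controls and MT3 was not. The 6 probes were 5.54- to 12.8-fold higher after 6.7 Gy and 7.10- to 17.0-fold higher after 7.4 Gy on day 4, 6.05- to 8.16-fold and 9.09- to 12.9-fold higher on day 7, and 3.27- to 4.47-fold and 7.36- to 11.2-fold higher on day 12. The median over all 7 probes was 2.94 and 3.27 log2 units above control on day 4 after 6.7 and 7.4 Gy, 2.79 and 3.59 on day 7, and 1.75 and 3.22 on day 12. Over all 28171 probes tested, the median difference from control lay between -0.08 and 0.03 in the 6 groups. MT3 is set apart from the other 6 from here on because of these values.

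The other 6 probes passed 2-fold above control in all 6 irradiated groups. Among all tested probes, the share more than 2-fold above control was 2.43% and 3.15% on day 4 after 6.7 and 7.4 Gy, 1.19% and 1.95% on day 7, and 1.29% and 3.23% on day 12. In each irradiated group every array lay above every control array for those 6 probes. That separation was found for 6.69% and 7.28% of tested probes on day 4, 3.99% and 5.87% on day 7, and 10.1% and 8.51% on day 12, in the same order of doses. The members were chosen for these rises, so nothing is read from the difference between their counts and these shares.

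**Figure D1:**
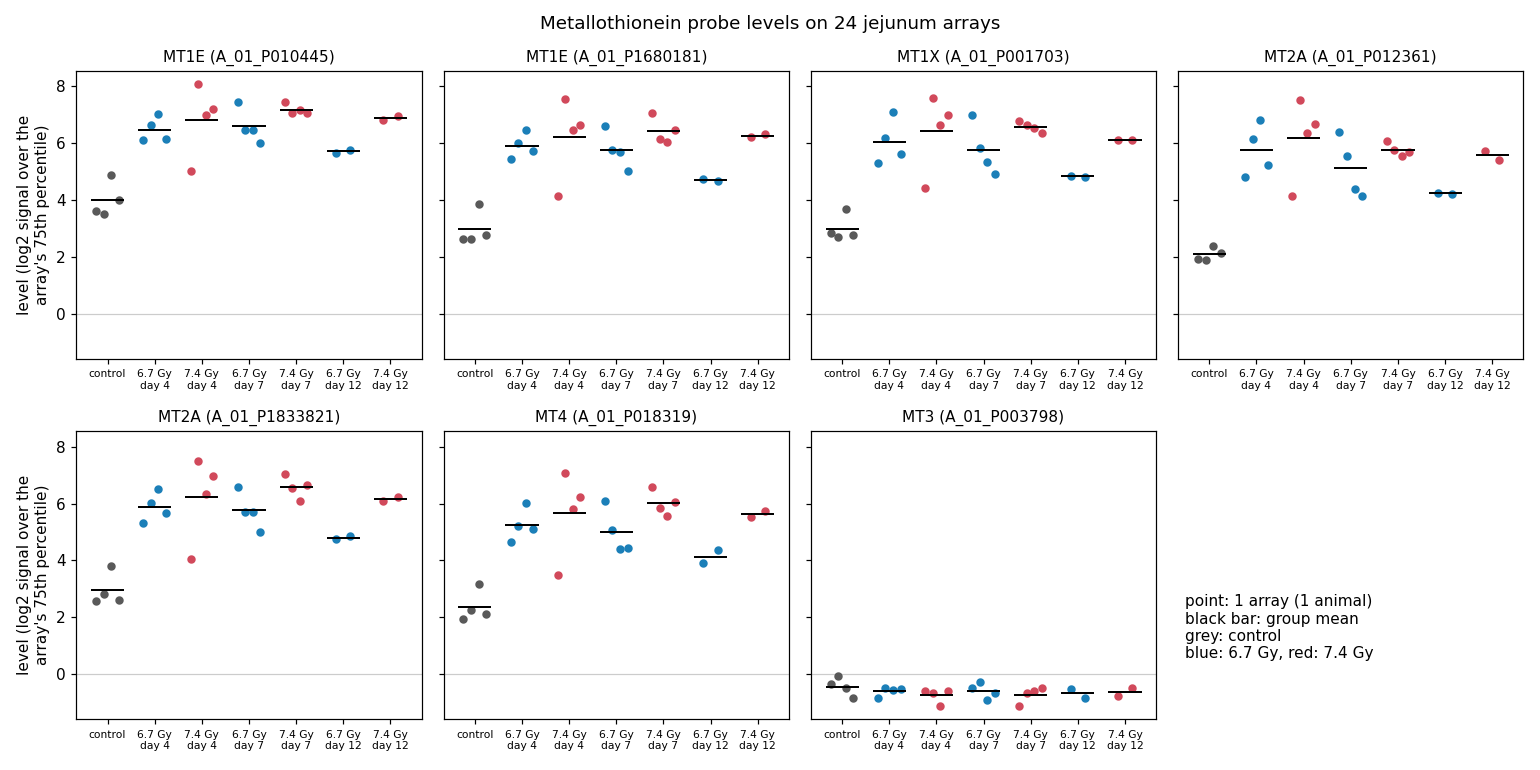
Level of each of the 7 metallothionein probes on each of the 24 arrays in log2 units relative to that array's 75th percentile, by group. Points are animals and black bars are group means. In 6 panels every irradiated animal lies above every control, while the MT3 panel stays between -1.13 and -0.08.

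MT1E, 1 of the broadly expressed MT1 isoforms that store zinc, was read by probe A_01_P010445 at levels of 3.63, 3.51, 4.89 and 4.00 in the 4 controls. On day 4 the 6.7 Gy animals read 6.11, 6.64, 7.02 and 6.14, and the 7.4 Gy animals 5.02, 8.09, 7.01 and 7.22. Every irradiated animal was above the highest control on that day, 1 of them by little. On day 7 the probe stood at 7.45, 6.47, 6.46 and 6.02 after 6.7 Gy and at 7.47, 7.06, 7.16 and 7.07 after 7.4 Gy. On day 12 it stood at 5.65 and 5.78 after 6.7 Gy and at 6.80 and 6.97 after 7.4 Gy. The 7.4 Gy animals of day 7 were the most alike of the 4-animal groups, and the mean of the 2 animals of 6.7 Gy on day 12 was the lowest of the irradiated groups. The difference from control was 2.47 ± 0.33 (SE) and 2.83 ± 0.60 log2 units on day 4, 2.60 ± 0.37 and 3.18 ± 0.29 on day 7, and 1.71 ± 0.38 and 2.88 ± 0.39 on day 12, with 6.7 Gy first in each pair. The second MT1E probe, A_01_P1680181, showed control levels of 2.64, 2.64, 3.86 and 2.77 and irradiated levels from 4.15 to 7.57. Its differences from control ran from 1.74 ± 0.37 after 6.7 Gy on day 12 to 3.45 ± 0.33 after 7.4 Gy on day 7.

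MT1X, an MT1 isoform at the far end of the cluster, had control levels of 2.82, 2.69, 3.67 and 2.78. On day 4 it read 5.32, 6.20, 7.09 and 5.63 after 6.7 Gy, against 4.44, 7.59, 6.66 and 6.99 after 7.4 Gy. As for MT1E, the third control and the first animal of 7.4 Gy on day 4 approached each other without crossing. On day 7 MT1X stood at 6.99, 5.83, 5.36 and 4.92 after 6.7 Gy and at 6.78, 6.63, 6.53 and 6.36 after 7.4 Gy, and on day 12 at 4.86 and 4.83 against 6.10 and 6.10. Relative to control these groups were higher by 3.07 ± 0.39 and 3.43 ± 0.60 log2 units on day 4, 2.79 ± 0.42 and 3.59 ± 0.23 on day 7, and 1.85 ± 0.30 and 3.11 ± 0.31 on day 12.

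MT2A, the main MT2 gene and a classical target of zinc, glucocorticoids and cytokines, gave the largest difference from control of the 7 probes. Its probe A_01_P012361 was at 1.93, 1.89, 2.39 and 2.14 in controls, a narrower spread than that of the other 5 rising probes. On day 4 it reached 4.82, 6.16, 6.81 and 5.24 after 6.7 Gy and 4.13, 7.51, 6.37 and 6.67 after 7.4 Gy, and these groups were higher than control by 3.67 ± 0.40 and 4.08 ± 0.61 log2 units. On day 7 the 6.7 Gy animals read 6.41, 5.54, 4.38 and 4.13 and the 7.4 Gy animals 6.09, 5.75, 5.56 and 5.71, or 3.03 ± 0.45 and 3.69 ± 0.18 above control. On day 12 the 6.7 Gy animals read 4.26 and 4.23 and the 7.4 Gy animals 5.73 and 5.42, or 2.16 ± 0.20 and 3.49 ± 0.21 above control. It was the only 1 of the 6 probes whose mean was highest after 7.4 Gy on day 4, and the scanner marked its spot as non-uniform on 3 arrays, 1 control and 2 of 6.7 Gy on day 7. The other MT2A probe, A_01_P1833821, ran from 2.57 to 3.79 in controls and from 4.06 to 7.51 in irradiated animals. Its differences from control ranged from 1.85 ± 0.36 after 6.7 Gy on day 12 to 3.64 ± 0.31 after 7.4 Gy on day 7.

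MT4, the isoform known from stratified squamous epithelium, was at 1.95, 2.26, 3.17 and 2.12 in controls. Its probe read 4.65, 5.20, 6.01 and 5.10 on day 4 after 6.7 Gy, and 3.50, 7.09, 5.81 and 6.24 after 7.4 Gy. No irradiated animal reached down to the controls. On day 7 MT4 stood at 6.10, 5.05, 4.40 and 4.44 after 6.7 Gy and at 6.59, 5.85, 5.55 and 6.05 after 7.4 Gy, and on day 12 at 3.89 and 4.35 against 5.54 and 5.75. The differences from control were 2.87 ± 0.34 and 3.28 ± 0.68 on day 4, 2.62 ± 0.41 and 3.64 ± 0.31 on day 7, and 1.75 ± 0.36 and 3.27 ± 0.35 on day 12. Of the 7 squamous epithelial genes listed as markers 3 had a probe: KRT4 was well above background on 22 of the 24 arrays, TP63 on 15 and KRT1 on 14. The summed level of the tested pair, KRT4 and TP63, was -1.48 to 0.26 in controls and -2.49 to -0.44 in irradiated animals, and neither gene was called higher in any group. Whether the probe read MT4 or another gene of the cluster was not tested.

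MT3, a growth-inhibitory isoform of the brain, behaved apart. Its levels were -0.37, -0.08, -0.49 and -0.84 in controls, -0.84, -0.49, -0.58 and -0.52 after 6.7 Gy on day 4, and -0.61, -0.68, -1.13 and -0.61 after 7.4 Gy on day 4. On day 7 the 6.7 Gy animals read -0.50, -0.30, -0.91 and -0.69 and the 7.4 Gy animals -1.12, -0.67, -0.61 and -0.48, and on day 12 the pairs read -0.51 and -0.86 against -0.78 and -0.50. Irradiated and control animals overlapped in all 6 groups. The difference from control lay between -0.32 ± 0.20 and -0.16 ± 0.18 log2 units, so no group mean was above that of the controls.

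**Figure D2:**
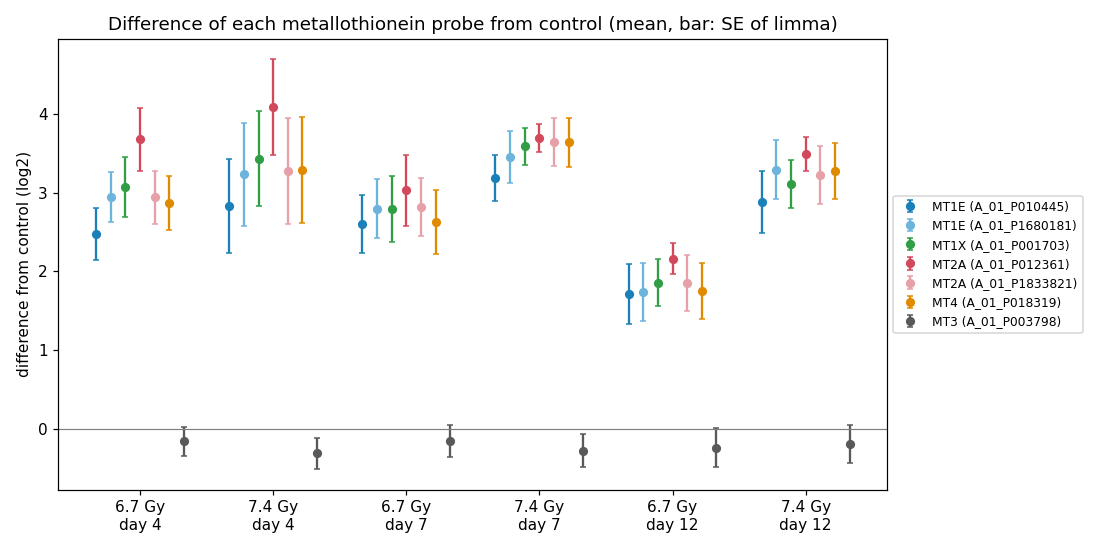
Difference from the 4 control animals in log2 units with its standard error, for each metallothionein probe in the 6 irradiated groups. MT3 lies between -0.32 and -0.16, and the other 6 probes between 1.71 (MT1E after 6.7 Gy on day 12) and 4.08 (MT2A after 7.4 Gy on day 4).

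The 6 rising probes moved together from animal to animal, within groups as well as between them. The mean level after 7.4 Gy on day 7 was the highest of the irradiated groups for 5 of the 6 probes, and that after 6.7 Gy on day 12 was the lowest for all 6. Within groups, the level of MT1E probe A_01_P010445 correlated with those of the other 5 at r = 0.90 to 0.97 across the 24 arrays, each array taken as its deviation from its group mean, and with MT3 at r = -0.12. These points share the animal, the array and possibly the transcripts bound. The 6 probes also varied more between animals of a group than most: their pooled SD within groups was 0.69 to 0.85 log2 units, above 91.1 to 95.3% of tested probes, against a median of 0.33 over all of them. The SD of MT3 was 0.25.

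Taking the median of the 6 probes on each array, as its difference from the control mean, the controls were at -0.36, -0.25, 0.82 and -0.21 log2 units. Day 4 animals were at 2.35, 3.06, 3.61 and 2.72 after 6.7 Gy and at 1.15, 4.60, 3.46 and 3.93 after 7.4 Gy. The third control was the highest of its group and the first 7.4 Gy animal of day 4 the lowest of its own, and both arrays lay on slide 3. On day 7 the 6.7 Gy animals had medians of 3.68, 2.79, 2.41 and 2.04 and the 7.4 Gy animals 4.04, 3.54, 3.17 and 3.55, and on day 12 they were 1.78 and 1.87 against 3.16 and 3.32.

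Arrays were printed 4 to a slide on 6 slides, slides 1 to 4 each held 1 control, and slides 5 and 6, scanned on the second of 2 scan days, held none. All 4 controls lay in position 1 of their slide, all 4 arrays of 7.4 Gy on day 4 in position 2, and every array of days 7 and 12 in position 3 or 4. Position and group therefore cannot be told apart between controls and those groups, nor between day 4 and days 7 and 12. Against the control of the same slide, the 6 probes were higher by 2.62 to 4.89 log2 units on 2 arrays of 6.7 Gy on day 4, by 1.23 to 4.49 on the 4 arrays of 6.7 Gy on day 7 and by 3.40 to 3.84 on 2 arrays of 7.4 Gy on day 7. On 2 arrays of 7.4 Gy on day 4 they were higher by 0.13 to 5.37, the low end from slide 3, and on the 2 arrays of 6.7 Gy on day 12 by 0.72 to 2.25. Without slide 3 the median over all 7 probes was 3.22 and 4.27 on day 4 after 6.7 and 7.4 Gy, 3.11 and 3.79 on day 7, and 2.07 and 3.51 on day 12. With slide as a block it was 3.45, 2.59, 2.79, 3.68, 1.48 and 2.89 in the same order of groups. The 2 arrays of 7.4 Gy on day 12 shared no slide with a control. The last of those values, 2.89, therefore came from a fit over all arrays, and the others from the compared groups alone.

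**Figure D3:**
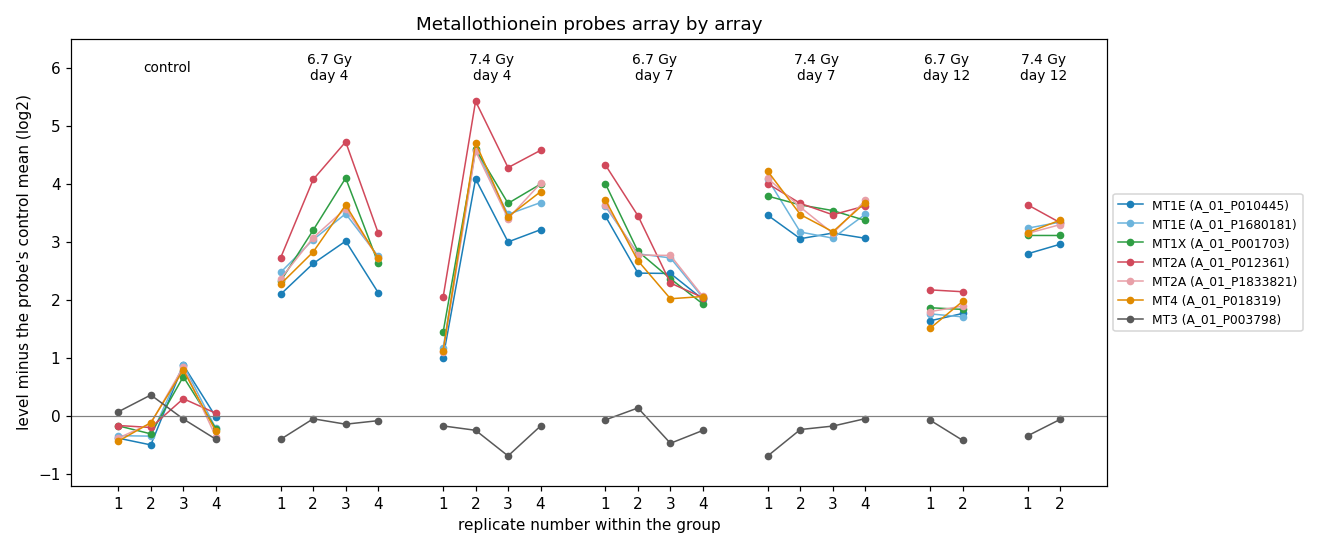
Level minus the control mean on each array for the 7 metallothionein probes, in log2 units, with lines joining the arrays of a group for 1 probe. The lines of 6 probes run together, with the third control and the first 7.4 Gy animal of day 4 standing out from their groups (median of the 6 probes 0.82 and 1.15), while MT3 stays near 0.

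The comparison of 7.4 with 6.7 Gy asked whether metallothioneins depended on dose. The mean of each of the 6 probes was higher at the higher dose on each day, on day 4 through 1 animal without which the sign turned, and no difference passed limma's test at an adjusted p under 0.05 together with 2-fold. On day 4 the difference was 0.29 to 0.42 log2 units (adjusted p = 0.9998 for each), and for MT1E probe A_01_P010445 it was 0.36 ± 0.45, with a 95% interval from -0.59 to 1.31. On day 7 it was 0.59 to 1.02 (adjusted p = 0.817 to 0.852), the highest being MT4 with an interval from -0.12 to 2.15. On day 12 it was 1.17 to 1.55 (adjusted p = 0.995 to 0.996), and MT1E probe A_01_P1680181 differed by 1.55 ± 0.71, with an interval from 0.07 to 3.03 and an unadjusted p of 0.0405 in limma. MT3 differed by -0.15, -0.12 and 0.05 on the 3 days.

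On day 12 both 7.4 Gy animals were above both 6.7 Gy animals for the 6 probes, but the 7.4 Gy arrays lay on slides 5 and 6 and the 6.7 Gy arrays on slides 3 and 4, so dose, slide and scan day cannot be told apart there. Averaged over the 3 days, the 6 probes were 0.71 to 0.98 log2 units higher at 7.4 Gy, with unadjusted p of 0.0130 to 0.0451 and adjusted p of 0.803 to 0.815. For MT4 this mean difference was 0.98 ± 0.36, with an interval from 0.23 to 1.74. None of the 28171 probes was called in any of these 4 dose comparisons (0%), and 0.277%, 0.735%, 1.88% and 0.529% of them were past 2-fold at an unadjusted p under 0.05 on day 4, day 7, day 12 and averaged over days. Only MT1E probe A_01_P1680181, on day 12, met that looser mark among the metallothioneins.

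Where 2 doses shared a slide the sign was not constant. On day 4 the 6 probes were higher at 7.4 Gy by 0.90 to 1.55 on slide 5 and by 0.50 to 1.04 on slide 6. On day 7 they were lower at 7.4 Gy on slide 1, by -0.86 to -0.29, and higher on slide 2, by 0.17 to 1.00. With slide as a block the mean over days was 0.61 to 0.82 (adjusted p = 0.717 to 0.799). The day 4 difference depended on which animals entered: it was 0.96 to 1.14 without slide 3, 0.03 to 0.18 without slide 5, and -0.17 to -0.03, lower at 7.4 Gy for all 6 probes, without 7.4 Gy replicate 2.

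**Figure D4:**
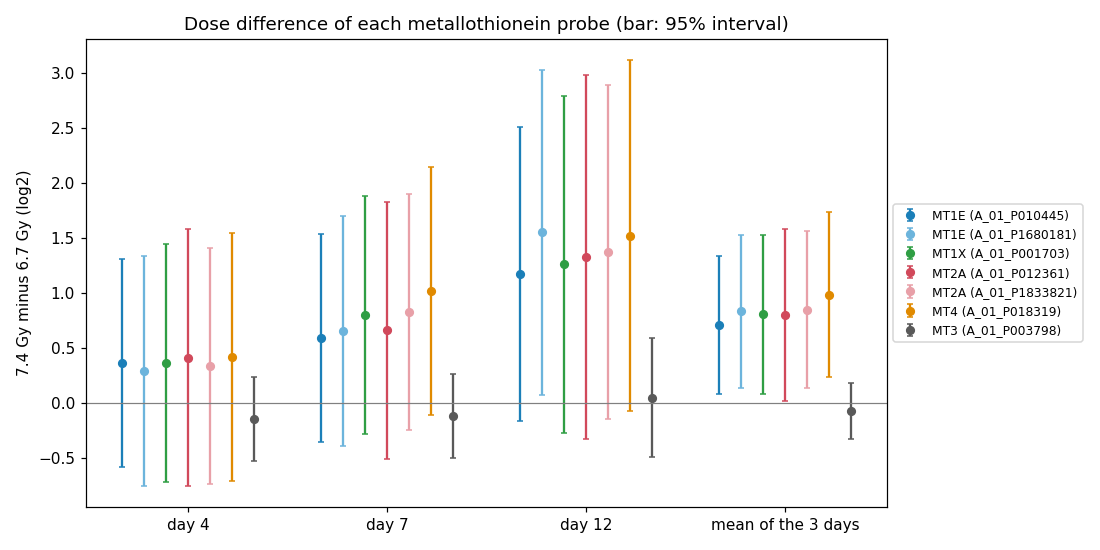
Difference between 7.4 and 6.7 Gy for each metallothionein probe on days 4, 7 and 12 and averaged over the 3 days, in log2 units with the 95% interval of limma's fit over 24 arrays. The differences of the 6 probes other than MT3 lie above 0 on each day, from 0.29 to 1.55 (on day 4 not without 7.4 Gy replicate 2), and most intervals on single days include 0.

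Between days, the metallothioneins showed no difference that passed the test. After 6.7 Gy the 6 probes differed by -0.64 to 0.13 log2 units on day 7 relative to day 4 (adjusted p = 0.557 to 0.926), and by -1.51 to -0.76 on day 12 relative to day 4 (adjusted p = 0.259 to 0.488). The lowest of these was MT2A probe A_01_P012361, with -1.51 ± 0.69 and an unadjusted p of 0.0396 in limma. Relative to day 7, the day 12 levels after 6.7 Gy differed by -1.06 to -0.87 (adjusted p = 0.756 to 0.859). After 7.4 Gy the differences were -0.39 to 0.37 for day 7 against day 4, -0.60 to 0.06 for day 12 against day 4 and -0.47 to -0.16 for day 12 against day 7. Without slide 3 the differences of days 7 and 12 from day 4 became -1.07 to -0.25 and -1.28 to -0.55, and without replicate 2 of 7.4 Gy on day 4 they became 0.05 to 0.83 and -0.15 to 0.52. Whether the course over days differed between doses was tested as an interaction, and its adjusted p in limma was 0.9999 for every metallothionein probe.

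Of all tested probes, 1.55%, 0.951% and 0.00355% were called in the 3 day comparisons after 6.7 Gy (day 7 against 4, 12 against 4 and 12 against 7) and 1.64%, 2.42% and 0.0248% after 7.4 Gy. No metallothionein was among them. For scale, 341 other probes were called higher than control on day 4 after 6.7 Gy, and their median difference from control was 1.33 on day 4, 0.41 on day 7 and 0.31 on day 12. After 7.4 Gy there were 475 such probes, with medians of 1.33, 0.65 and 0.28. Of the 341 probes, 17.9% were still 2-fold above control on day 7 and 11.4% on day 12, and of the 475 probes 23.8% and 13.7%. The 6 metallothionein probes were all still 2-fold above control on both days, but they were chosen for their rises across days and the others for day 4 alone, so these shares are a description.

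A further 9 probes are described as metallothionein on the array but carry no symbol of that form. These are 1 probe for LOC702286, 2 for LOC708983 and 6 without a symbol, and all 9 were tested. Their median difference from control was 2.57 and 2.71 log2 units on day 4 after 6.7 and 7.4 Gy, 2.24 and 2.66 on day 7, and 1.64 and 2.60 on day 12. Without control replicate 4, on which 5 of the 9 probes were not well above background, the medians were 2.21 and 2.28, 1.82 and 2.24, and 1.24 and 2.25, and the lowest of the 5, probe A_01_P1712896, was 0.49 to 0.97 above control in 5 groups. Without that array 8 and 9 of the 9 probes were 2-fold above control on day 4, 7 and 8 on day 7, and 7 and 8 on day 12, where all 9 had been with all controls. With all controls, 2.43% and 3.15% of all tested probes were 2-fold above control on day 4, 1.19% and 1.95% on day 7, and 1.29% and 3.23% on day 12. Which transcripts the 9 probes bind was not tested, so they are not taken as a separate measure of the rise. They too showed no called dose difference, with medians of 0.19, 0.31 and 0.75 for 7.4 against 6.7 Gy on days 4, 7 and 12.

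Genes of zinc transport and sensing were examined next, since zinc is the main physiological inducer of MT1 and MT2. Of 25 genes listed, 18 had a probe and 15 were tested. On day 4, 2 of the 15 fell and none rose at either dose, and on days 7 and 12 none passed the test. The share of all tested probes called lower was 0.731% after 6.7 Gy and 0.887% after 7.4 Gy on day 4, and that called higher was 1.25% and 1.71%. In either direction it was 0.0639% and 0.288% on day 7 and 0.0071% and 0.00355% on day 12. The median difference of the list was -0.20 and -0.27 on day 4, against -0.06 and -0.08 over all tested probes.

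SLC39A4 (ZIP4), the apical importer that takes up dietary zinc in enterocytes, was at levels of 3.81, 2.93, 3.05 and 3.14 in controls. On day 4 it was at 1.86, 2.06, 1.43 and 1.84 after 6.7 Gy and at 2.23, 1.10, 1.42 and 1.11 after 7.4 Gy, with no overlap with controls. It fell by 1.43 ± 0.22 log2 units after 6.7 Gy (limma, adjusted p = 0.0165) and by 1.77 ± 0.29 after 7.4 Gy (adjusted p = 0.0175). On day 7 it stood at 2.06, 2.05, 2.12 and 2.16 and at 0.89, 1.65, 2.34 and 1.05, and the differences of -1.13 and -1.75 did not pass (adjusted p = 0.0905 and 0.0641). On day 12 it read 2.96 and 2.53 after 6.7 Gy, against 2.15 and 2.12 after 7.4 Gy, with differences of -0.49 and -1.10 (adjusted p = 0.776 and 0.449).

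SLC30A10, an exporter that carries manganese and has been described for zinc, was the other gene that fell. Its levels were 0.59, -0.14, -0.13 and 0.35 in controls, -1.16, -1.23, -1.53 and -2.18 after 6.7 Gy and -1.06, -1.90, -1.64 and -1.94 after 7.4 Gy on day 4. The groups did not overlap, and the gene fell by 1.69 ± 0.27 (limma, adjusted p = 0.0165) and 1.80 ± 0.25 (adjusted p = 0.0102). A second SLC30A10 probe, A_01_P1769106, differed by -1.42 (adjusted p = 0.242) and -1.59 (adjusted p = 0.0410). On days 7 and 12 the first probe differed by -1.76 to -0.87 and did not pass (adjusted p = 0.0968 to 0.430). Without control replicate 4, neither gene passed at either dose: the differences were -1.47 and -1.80 for SLC39A4 (adjusted p = 0.0571 and 0.0717) and -1.63 and -1.74 for SLC30A10 (adjusted p = 0.0627 and 0.0593). With slide as a block neither passed either (limma, adjusted p = 0.133 to 0.294). The differences there were -1.74 and -1.43 for SLC39A4 and -2.08 and -1.59 for SLC30A10.

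MTF1, the zinc-sensing factor that activates metallothionein genes, differed from control by -0.20 on day 4 after 6.7 Gy (limma, adjusted p = 0.619) and by -0.01 after 7.4 Gy (adjusted p = 0.983). Its mean level was -0.46 in controls and lay between -0.91 and -0.40 in the irradiated groups. The exporter SLC30A1 and the importer SLC39A14, both known to respond to zinc or inflammation, had no probe under those symbols.

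**Figure D5:**
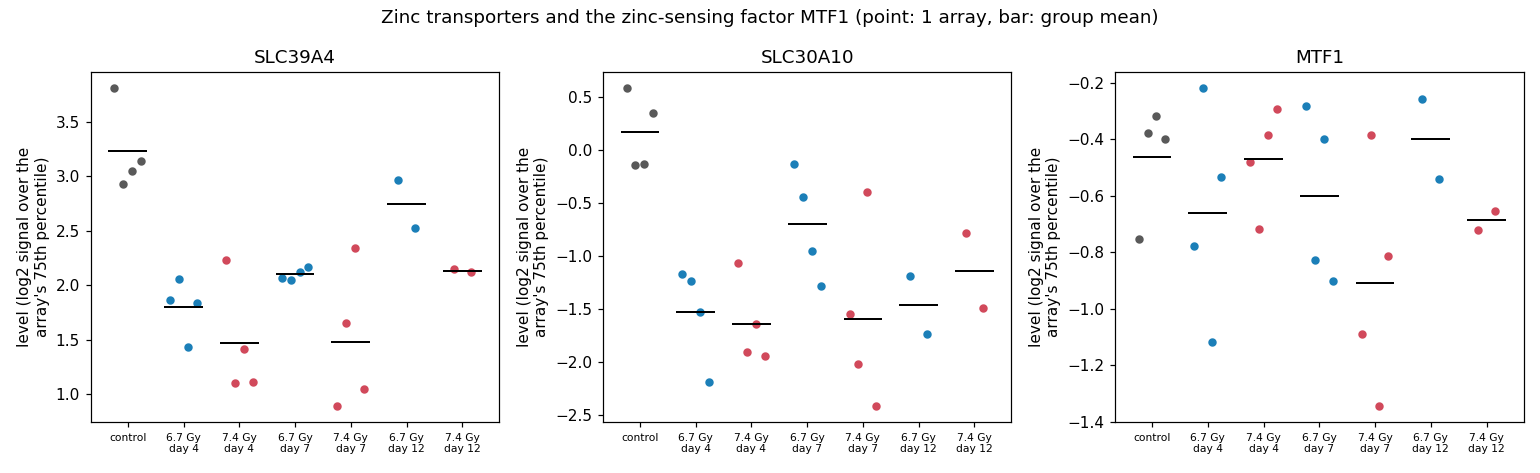
Level of the zinc genes SLC39A4, SLC30A10 and MTF1 on each of the 24 arrays in log2 units relative to that array's 75th percentile, by group. On day 4, SLC39A4 and SLC30A10 lie below every control at both doses, while MTF1 overlaps with the controls.

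Other genes known to move with metallothioneins showed few calls on day 4 and none later, although 5 of the genes listed here and above passed after 7.4 Gy on day 7 where all arrays entered 1 model. Of 7 copper genes tested, CP (ceruloplasmin, the copper-carrying plasma ferroxidase) rose by 1.99 ± 0.40 log2 units after 6.7 Gy (limma, adjusted p = 0.0336) and by 1.87 ± 0.37 after 7.4 Gy (adjusted p = 0.0284). In these groups 1.25% and 1.71% of all tested probes were called higher. CP was below background on control replicate 4, leaving out 1 array ended its call in 7 of 8 cases at each dose, and with dim signals raised to a common floor its difference was 0.21 (adjusted p = 0.553) and 0.02 (adjusted p = 0.215). The copper enzyme SOD1 fell by 0.70 and 0.67 on day 4 (adjusted p = 0.0279 and 0.0447), less than 2-fold.

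Of 9 tested NRF2 targets, which belong to the oxidative stress response, 2 fell on day 4 after 6.7 Gy and 1 after 7.4 Gy, where 0.731% and 0.887% of all tested probes were called lower. HMOX1 (heme oxygenase 1) fell by 1.19 ± 0.24 on day 4 after 6.7 Gy (limma, adjusted p = 0.0321) and by 1.33 ± 0.21 after 7.4 Gy (adjusted p = 0.0156), and ME1 (malic enzyme) fell by 1.02 ± 0.19 after 6.7 Gy (adjusted p = 0.0284). Leaving out 1 array ended the call for HMOX1 in 7 of 8 cases at 6.7 Gy and without control replicate 4 at 7.4 Gy (-1.24, adjusted p = 0.0717), and that for ME1 in 6 of 8 cases.

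No gene of 8 glucocorticoid-responsive genes passed the test against control in any group, with SGK1 at 0.57 and 0.66 and DUSP1 at 0.25 and 0.15 on day 4. Their differences farthest from 0 were those after 7.4 Gy on day 7, at -1.31 for SGK1 (limma, adjusted p = 0.114) and -0.98 for DUSP1 (adjusted p = 0.115). Of 10 tested genes of the IL-6 and STAT3 response, the acute phase gene SERPINA3 rose by 2.33 ± 0.52 after 7.4 Gy on day 4 (limma, adjusted p = 0.0400), where 1.71% of all tested probes were called higher. SERPINA3 is named because it was the only call of its list. Leaving out 1 array ended that call in 7 of 8 cases, with differences of 1.96 to 2.59 and adjusted p of 0.0672 to 0.105, and with a common floor the difference was 1.61 (adjusted p = 0.149). JUNB at 0.84 after 6.7 Gy (adjusted p = 0.0463) and the receptor OSMR at 0.80 after 7.4 Gy (adjusted p = 0.0375) stayed under 2-fold.

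Markers of cell types were read beside these values. Enterocyte markers (FABP2, LCT, ANPEP, VIL1, MTTP and DPP4) were well above background on 23 or 24 arrays each, as the label jejunum requires. Their summed level was 7.60 to 7.97 in controls, 7.38 to 7.97 on day 4 over both doses, 6.45 to 7.68 on day 7 and 7.30 to 7.99 on day 12. Among the 6, 1 gene, VIL1, fell by 1.58 on day 4 after 6.7 Gy (limma, adjusted p = 0.0358), where 0.731% of all tested probes were called lower. Leaving out 1 array ended the VIL1 call in 7 of 8 cases. Of the Paneth cell markers, LYZ, PLA2G2A and PRSS2 were measured on all 24 arrays and MMP7 was above background on 3. Their summed level was 4.82 to 6.40 in controls and 4.74 to 6.80 in irradiated animals, and none passed the test.

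Fibroblast markers moved with the day 4 groups: their summed level over 5 genes was 5.04 to 6.07 in controls, 6.33 to 6.49 after 6.7 Gy and 6.56 to 7.42 after 7.4 Gy, and 4 of the 5 rose after 7.4 Gy, where 1.71% of all tested probes were called higher (COL1A2 by 1.14, COL3A1 by 1.29, DCN by 1.25 and LUM by 1.12). On day 7 the fibroblast sum was 4.62 to 5.78 after 6.7 Gy and 5.22 to 6.83 after 7.4 Gy, and on day 12 it was 5.01 to 5.79 and 4.82 to 6.11. Leaving out 1 array ended the calls of COL1A2 and LUM in 7 of 8 cases and that of COL3A1 in 8, and that of DCN without control replicate 2. None of the 4 calls held with slide, position, scan day or replicate number as a block, or without slide 3 or 5. With these blocks the differences of the 4 genes ran from 0.74 (LUM, position) to 1.56 (COL3A1, slide). The monocyte marker CD14 rose by 1.25 on day 4 after 7.4 Gy (limma, adjusted p = 0.0253), a call that leaving out 1 array ended in 7 of 8 cases. Summed with CSF1R, the other tested marker of its list, the level was 1.24 to 1.64 in controls. On day 4 that sum was 1.05 to 2.00 after 6.7 Gy and 1.40 to 1.95 after 7.4 Gy. On day 7 it was 0.45 to 0.87 and 0.57 to 1.48, and on day 12 it was 1.07 and 0.37 to 0.66. Of 3 red cell markers tested, HBB, well above background on 15 of the 24 arrays, was called lower on days 4 and 7 at both doses (limma, adjusted p = 0.00142 to 0.00464), while HBA2 and AHSP passed in no group. HBB differed by -6.92 and -6.38 on day 4 and by -8.17 and -8.62 on day 7, and by -4.52 at the weakest alternative. Of all tested probes, 0.731% and 0.887% were called lower on day 4 and 0.0426% and 0.17% on day 7. Slide as a block ended the HBB call on day 4 at both doses, with differences of -6.57 and -6.54, and on day 7 after 6.7 Gy. The red cell sum was 7.22 to 8.01 in controls, 6.68 to 7.44 on day 4, 6.77 to 7.73 on day 7 and 7.21 to 7.40 on day 12. In the goblet cell, neutrophil, T cell, B cell, smooth muscle and endothelial lists no gene passed the test in any group. The part of these shifts in the metallothionein levels was not tested.

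Genes whose pattern was most like that of MT1E probe A_01_P010445 were sought among 9564 probes with a symbol. By the root mean square distance between differences from control over the 6 irradiated groups, the nearest outside the family were EDA2R (0.78 log2 units), a TNF receptor family member switched on by p53, MT-ND1 (0.90), a subunit of mitochondrial complex I, LOC723165 (1.02), CST6 (1.14), a cysteine protease inhibitor, and VNN2 (1.15). The median distance over all these probes was 2.67. These differences share the control animals, so the distance is a description.

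By the correlation of deviations from the group mean across the 24 arrays, those near it included MSL3 (r = 0.77), GRSF1 (r = 0.74), RSAD1 (r = 0.74) and EIF3H (r = 0.72), against a median of 0.03. Spearman's rho for these 4 genes was 0.67, 0.65, 0.65 and 0.50. Without the first and second 7.4 Gy animals of day 4, which were farthest from their group mean, r was 0.57, 0.65, 0.45 and 0.37. The other 5 metallothionein probes stood above all of them, at r = 0.90 and higher.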

How the data were processed

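One-colour Agilent rhesus arrays (design version 2, Cy3) were scanned and read with Feature Extraction 11.0.1.1. Deposited per-array files give the intensity of every spot, background-subtracted by the authors' software, and the authors' normalized table holds log2 values from GeneSpring GX 11.0, used here for the symbols. Levels were recomputed as log2 processed signal minus each array's 75th percentile and differed from the authors' values by at most 0.00159 for metallothioneins. Control spots were left out and repeat spots averaged.

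Tests used limma 3.58.1 in R 4.3.3: the 2 groups alone for comparisons with control, and 1 model of 7 groups and 24 arrays for dose and day. P-values were adjusted by Benjamini-Hochberg over 28171 probes, and a call needs adjusted p under 0.05 and 2-fold. The scripts were tested on simulated data. Each array is 1 animal, so p-values measure the spread between animals. No sequences were used.

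Metallothioneins were taken by symbol, listed genes were named where called or central to metallothionein control, and likeness was ranked against the MT1E probe of highest mean level (1 gene of that ranking is not reported here). Members and lists were chosen with earlier results of these data known. Alternatives were normexp, other centring and filters, blocks for slide, position, scan day and replicate number, other fits, the methods' t-test and leaving out arrays. Replicate numbers did not pair animals: same-numbered arrays correlated at a median of 0.02 (-0.17 to 0.33).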

Additional observations from a re-analysis of the deposited data

Results flagged for a closer look

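In 3 of 35 groups of 4 arrays, 1 animal stood far from the other 3 of its group, with a gap to the nearest of them above Dixon's 95% critical value for a group of 4 once divided by the group's range. Chance marks about 1 in 20 such groups. The third control was high for MT1X, at 3.67 with the nearest control at 2.82 (0.860 of the range), and for MT1E probe A_01_P1680181, at 3.86 with the nearest at 2.77 (0.889). Both come from the same array, on slide 3. The third animal of 7.4 Gy on day 4 was low for MT3, at -1.13 with the nearest at -0.68 (0.855).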

How the results depend on the processing

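The metallothionein median kept its sign under every alternative run, with ranges of 2.72 to 3.45 and 2.59 to 4.27 log2 units on day 4 after 6.7 and 7.4 Gy, 2.38 to 3.11 and 3.43 to 3.79 on day 7, and 1.48 to 2.09 and 2.89 to 3.51 on day 12. No dose or day comparison called a metallothionein under any alternative run. Position could not be run as a block for controls against days 7 and 12 or for day 4 against those days, which share no position. Against control, position on day 4 after 7.4 Gy and slide and scan day on day 12 after 7.4 Gy were fitted over all arrays. The 2 groups compared there shared none of these. Leaving out slide 3 or 5, leaving out non-uniform spots or control replicate 4 for probes without a metallothionein symbol, and the median without MT3 were chosen after seeing the data.

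The count of genes called in the zinc, copper, NRF2, glucocorticoid and IL-6 lists, with cell type markers left out, changed more, and the cause was not tested. After 6.7 Gy on day 4 it was 5, and became 0 with no filter on dim probes, 2 with a common floor, 0 with slide, 0 with position and 3 with scan day as a block, 0 by the methods' t-test, 2 without slide 5, 3 without slide 3 and 0 to 4 on leaving out 1 array. After 7.4 Gy on day 4 it was 5, and became 0, 3, 0, 0 (position, fitted over all arrays rather than the 2 groups alone), 0, 2, 0, 2 and 0 to 5 in the same order. On day 7 it was 0, and became 1 after 6.7 Gy and 2 after 7.4 Gy with normexp, 1 and 4 with probes above background on all arrays, and, after 7.4 Gy, 5 in 1 model of all arrays, 2 with a trended robust fit and 0 to 4 on leaving out 1 array. After 7.4 Gy on day 12 leaving out 1 array gave 0 to 1.

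With the replicate number as a block, which pairs no animals here, the count on day 4 was 0 after 6.7 Gy and 2 after 7.4 Gy, and the metallothionein medians were 2.94, 3.27, 2.79, 3.59, 2.09 and 3.47 in the order above. All 24 arrays read the 7 probes well above background, and the number of arrays limits the precision.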
